A study of Mus musculus with 72 samples.

Results

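Elk3, Nfia, Tfcp2l1, Lta4h, Csf2rb2, Riok2, Cops8, Tmtc3, Trim12a and Clasrp are 10 mouse genes whose counts in the lung stood at one of 2 separate levels, near 0 or clearly above it, depending on the animal. They were taken by name, as 10 of the 23930 genes in the deposited count table, and they were chosen by their measured levels in these same libraries, for this very pattern. Their levels, the way they went together, the match of each tumor to its own lung and their part in the time comparisons are therefore given as descriptions and not as tests. All animals lacked Gprc5a (genotype Gprc5a-/-), which codes for an orphan receptor made by airway and alveolar epithelium, and no animals with the gene are among the samples. NNK is a nitrosamine of tobacco smoke that causes lung tumors in mice. The 33 tumors, dissected from the lungs of NNK-exposed animals, comprised 4 from 3 animals at the end of exposure (16 weeks of age), 6 from 4 animals at 3 months after it (28 weeks) and 23 from 9 animals at 7 months (44 weeks). The 39 samples of normal-appearing lung, each from another animal, comprised 10 at baseline (8 weeks of age, not exposed), 10 at the end of exposure, 9 at 3 months and 10 at 7 months. The time groups hold different animals of different ages, so NNK, age, time and any other difference between those sets of animals cannot be told apart. The labels name neither strain nor litter nor sequencing chip.

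A tissue library reports a gene's mRNA as a mean over many cells, so most genes spread smoothly from animal to animal. Inherited forms of genes that lie close together on a chromosome are passed on together more often than those on different chromosomes, which is why positions are given beside the levels. The labels give no parentage, and inheritance was not tested. The amplicon assay used here reads 1 short stretch of each gene between 1 pair of primers. A count near 0 can thus come from a missing transcript or from a stretch that was not amplified, and these cannot be told apart. Because each gene is read by its own amplicon, levels are compared between animals and not between genes.

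The members have unrelated functions. Elk3 is an ETS-family transcription factor that partners with serum response factor, Nfia is a DNA-binding protein of the nuclear factor I family, and Tfcp2l1 is a CP2/grainyhead-family transcription factor known from naive pluripotent cells. Lta4h makes leukotriene B4, which attracts neutrophils, and Csf2rb2 is the interleukin-3 receptor subunit that mice have beside the common beta chain. Riok2 is an atypical kinase needed to mature the small ribosomal subunit, Cops8 is a subunit of the COP9 signalosome, which removes NEDD8 from cullins, and Clasrp is a serine/arginine-rich protein that binds the splicing kinase CLK4. Tmtc3 adds O-linked mannose to cadherins in the endoplasmic reticulum. Trim12a belongs to the mouse genes related to Trim5, whose primate product restricts retroviruses.

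By RefSeq positions (GRCm38.p6), Elk3, Lta4h and Tmtc3 lie on chromosome 10, Cops8 and Tfcp2l1 on chromosome 1, Trim12a and Clasrp on chromosome 7, Nfia on chromosome 4, Csf2rb2 on chromosome 15 and Riok2 on chromosome 17. The promoters of the members that went together on chromosomes 10 and 1 are shown. Within each of these chromosomes, any 2 of these members were high or low together in 35 or 39 of the 39 lungs. All 10 members matched an entry in the RefSeq promoter table. Each sequence is 300 bases long and runs 5′ to 3′ along the gene's strand. Capitals mark every match to 4 short motifs. These were GGGCGG, which is CCGCCC on the other strand, then CCGGAAG, whose other strand reads CTTCCGG, then TATAAA, on the other strand TTTATA, and last CCAAT, whose other strand reads ATTGG. Matches to different motifs did not overlap in the promoters shown.
Elk3 (chr10:93311110-93311409, minus strand): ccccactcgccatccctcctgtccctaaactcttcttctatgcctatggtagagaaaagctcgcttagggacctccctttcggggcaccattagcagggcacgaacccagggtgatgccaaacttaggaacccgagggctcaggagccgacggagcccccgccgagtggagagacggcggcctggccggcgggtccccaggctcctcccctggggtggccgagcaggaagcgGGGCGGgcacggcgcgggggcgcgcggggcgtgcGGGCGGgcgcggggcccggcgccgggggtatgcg
Lta4h (chr10:93453146-93453445, plus strand): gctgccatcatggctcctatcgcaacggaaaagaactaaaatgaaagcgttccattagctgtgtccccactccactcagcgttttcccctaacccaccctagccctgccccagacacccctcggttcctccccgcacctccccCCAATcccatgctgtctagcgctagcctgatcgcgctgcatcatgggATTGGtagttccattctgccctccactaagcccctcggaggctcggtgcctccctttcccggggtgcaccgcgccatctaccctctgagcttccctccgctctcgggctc
Tmtc3 (chr10:100487298-100487597, minus strand): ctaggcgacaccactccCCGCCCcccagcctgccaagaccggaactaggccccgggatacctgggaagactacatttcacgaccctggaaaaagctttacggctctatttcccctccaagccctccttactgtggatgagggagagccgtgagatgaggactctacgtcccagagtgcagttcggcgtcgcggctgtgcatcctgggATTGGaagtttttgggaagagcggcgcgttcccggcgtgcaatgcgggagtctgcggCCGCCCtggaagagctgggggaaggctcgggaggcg
Cops8 (chr1:90603175-90603474, plus strand): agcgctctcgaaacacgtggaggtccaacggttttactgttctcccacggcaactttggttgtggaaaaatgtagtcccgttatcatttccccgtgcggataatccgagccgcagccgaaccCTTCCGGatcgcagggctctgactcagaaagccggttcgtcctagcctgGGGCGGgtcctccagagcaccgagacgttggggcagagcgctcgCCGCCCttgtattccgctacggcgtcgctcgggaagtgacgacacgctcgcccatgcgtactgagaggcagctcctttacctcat
Tfcp2l1 (chr1:118627695-118627994, plus strand): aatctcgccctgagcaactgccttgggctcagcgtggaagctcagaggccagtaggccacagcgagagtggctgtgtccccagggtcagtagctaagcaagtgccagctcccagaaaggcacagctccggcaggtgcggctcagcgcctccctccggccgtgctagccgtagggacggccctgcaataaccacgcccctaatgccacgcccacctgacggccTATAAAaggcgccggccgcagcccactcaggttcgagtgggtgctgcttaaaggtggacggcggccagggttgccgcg
Among 32851 promoters of that length, GGGCGG was found in 35.7%, CCGGAAG in 8.86%, TATAAA in 13.6% and CCAAT in 37.4%, on either strand. Elk3, Tmtc3 and Cops8 each held GGGCGG at 2 places, counting both strands. Lta4h, which was high in exactly the lungs where Elk3 was high, held CCAAT at 2 places and no GGGCGG. Tmtc3 also held 1 CCAAT. Tfcp2l1 held 1 TATAAA and none of the other 3 motifs, while its partner Cops8 held 1 CCGGAAG and no TATAAA. No motif of these 4 was thus shared by Elk3 and Lta4h or by Cops8 and Tfcp2l1, while Tmtc3 shared GGGCGG with Elk3 and CCAAT with Lta4h. Whether these motifs bear on the levels was not tested. These are the sequences of the reference strain and not of the animals studied.

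Total counts per library ran from 7459147 to 21822522, and 15644 to 18645 genes had a count. The deleted gene, Gprc5a, had at most 4 counts in any library and 0 in 41 of 72. The lung epithelial markers Sftpc and Scgb1a1 were abundant in every normal lung, at 2319 to 18123 CPM and 5963 to 118616 CPM. In tumors Sftpc stood at 5344 to 94568 CPM, and Scgb1a1 at 23.7 to 49632 CPM. CPM here is the usual depth-scaled count, with library totals adjusted by trimmed means of M values (TMM) over the 72 libraries. The heart muscle gene Myh6 was above 300 CPM in 5 normal lungs, 3 of them at baseline. In these bulk samples, fewer cells of a type and less RNA per cell cannot be told apart.

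Each member left a wide empty band between its high and low lungs. For every gene, the widest gap between neighbouring lungs was found on the log2(CPM + 1) scale, with at least 3 lungs on each side, and a lung or tumor was placed on the high or low side by the middle of that gap. The gap was 5.91 for Nfia, 4.16 for Cops8, 4.09 for Lta4h, 3.71 for Riok2, 3.36 for Tmtc3, 3.04 for Elk3, 2.70 for Trim12a, 2.35 for Clasrp, 2.22 for Csf2rb2 and 2.09 for Tfcp2l1. Over the 14907 genes tested in normal lung the median widest gap was 0.16, and 33 genes (0.221%) had a gap of at least 2. The members are 10 of those 33. Of the other 23, 5 lie on the X or Y chromosome, among them Xist and Ddx3y, 3 are histocompatibility genes whose names begin with H2-, and 9 more lie on a chromosome that also holds a member. The remaining 6 were Cox7a2, Elovl5, Cyb5r4, Ptcd3, Btla and Pld1. Each member chromosome holds 574 to 1104 other tested genes, so a shared chromosome does not place a gene near a member. Among the 9, D17H6S56E-5 and Ppp1r18 start at 34996678 and 35865593 on chromosome 17, close to H2-Aa at 34282744. These 2 genes and H2-Aa were each high in 20 lungs.

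**Figure D1:**
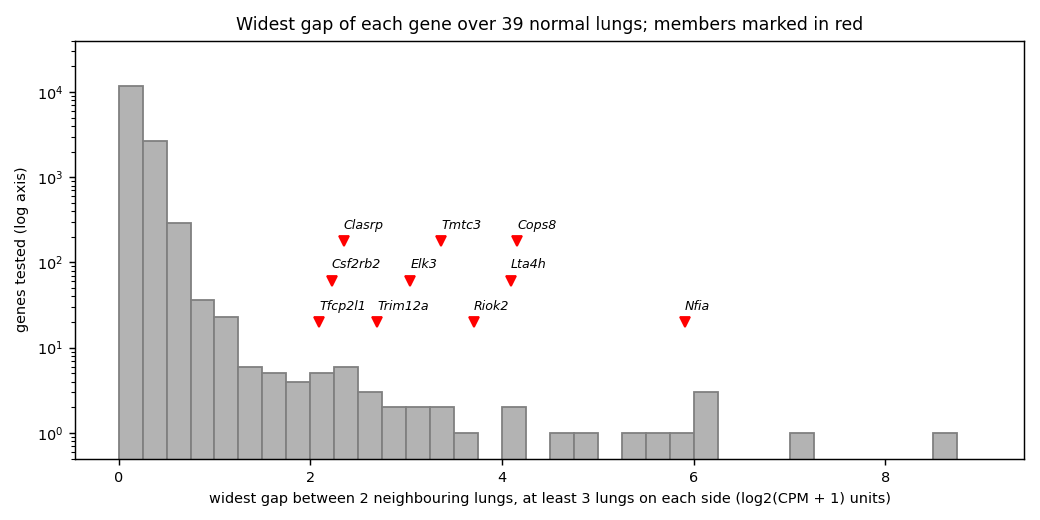
Widest gap between 2 neighbouring lungs for each of 14907 genes (x axis, log2(CPM + 1) units; y axis, number of genes on a log axis), with the 10 members marked by red triangles at their own gap (their height has no meaning). Nearly all genes lie below 1, and the members lie between 2.09 and 5.91.

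The gap was not a matter of a few reads. Nfia had 667 to 4216 counts in its 28 high lungs and at most 2 counts in its 11 low lungs, 7 of which had none. Riok2 had 172 to 754 counts in 14 high lungs and at most 2 in 25 low lungs. Elk3 kept the most signal on its low side, with 0.818 to 3.65 CPM in 27 lungs (at most 53 counts) against 37.4 to 104 CPM (559 to 1875 counts) in 12. No lung had an Elk3 count between those values.

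The 3 transcription factors each followed their own animals. Elk3 was low in all 10 baseline lungs, at 0.939 to 2.32 CPM (median 1.61). When exposure ended, 9 lungs lay at 0.818 to 3.34 CPM and 1 lung at 37.4 CPM, and at 3 months all 9 lay at 42.1 to 104 CPM (median 66.5). At 7 months 8 lungs were again at 1.11 to 3.65 CPM, and 2 stood at 55.0 and 60.6 CPM. The 3-month lungs thus had no overlap with the baseline lungs for Elk3, while the other later groups were mixtures.

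Nfia was the member with the widest gap. In the baseline group 9 lungs had 79.8 to 117 CPM and 1 had 0.104 CPM. Among lungs from the end of exposure 4 had 66.3, 85.7, 109 and 169 CPM, and the other 6 had 0 to 0.115 CPM. All 9 lungs at 3 months were high, at 87.3 to 231 CPM (median 167), and at 7 months 6 lay at 76.1 to 162 CPM and 4 at 0 to 0.119 CPM. Every time group except the one at 3 months therefore held both kinds of animal.

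Tfcp2l1 was low in 4 of 10 baseline lungs, at 0 to 0.167 CPM, and at 8.77 to 31.9 CPM in the other 6. It was high in all 29 exposed lungs, at 3.97 to 20.9 CPM at the end of exposure, 5.87 to 14.8 CPM at 3 months and 8.36 to 31.3 CPM at 7 months. Its high side spread more than its gap, since the lowest high lung stood at 3.97 CPM and the highest at 31.9 CPM.

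The genes of inflammatory signalling went different ways. Lta4h, the leukotriene B4 enzyme, was low in all 10 baseline lungs (0.0540 to 0.598 CPM, median 0.362). In the group from the end of exposure 9 lungs had 0.132 to 0.697 CPM and 1 had 29.7 CPM, and at 3 months all 9 had 30.7 to 61.1 CPM (median 35.0). At 7 months 8 lungs had 0 to 0.794 CPM and 2 had 43.0 and 44.0 CPM. The high lungs were the same 12 animals as for Elk3.

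Csf2rb2, the interleukin-3 receptor subunit, was high in all 10 baseline lungs, at 6.71 to 24.0 CPM. The low lungs came mainly from the end of exposure, where 4 of 10 had 0.0568 to 0.155 CPM and the other 6 had 6.27 to 31.9 CPM. All 9 lungs at 3 months were high (10.9 to 38.1 CPM), as were 9 of 10 at 7 months (11.8 to 101 CPM), with 1 lung at 0.556 CPM.

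The genes of basic cell machinery differed in where their low lungs lay. Riok2, the ribosome-maturation kinase, was at 0 to 0.111 CPM in all 10 baseline lungs. It stood at 26.1 CPM in 1 lung at the end of exposure and at 0 to 0.139 CPM in the other 9. It was at 14.1 to 27.7 CPM in 8 lungs at 3 months with 1 at 0, and at 16.6 to 44.0 CPM in 5 lungs at 7 months with the other 5 at 0 to 0.159 CPM. Riok2 and Lta4h therefore differed at 7 months, where 5 lungs were high for Riok2 and 2 for Lta4h.

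Tmtc3, the cadherin mannosyltransferase, was already high in 4 baseline lungs, at 11.4, 12.4, 12.8 and 15.4 CPM, with the other 6 at 0 to 0.199 CPM. At the end of exposure 1 lung had 17.3 CPM and 9 had 0 to 0.207 CPM. All 9 lungs at 3 months were high, at 13.7 to 36.5 CPM (median 20.7), and at 7 months 2 had 16.4 and 22.3 CPM and 8 had 0 to 0.159 CPM.

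Cops8, the signalosome subunit, was low in 4 baseline lungs only, at 0.286, 0.486, 0.744 and 0.833 CPM, against 41.2 to 74.2 CPM in the other 6. In exposed lungs it ranged over 33.1 to 73.8 CPM at the end of exposure, 31.7 to 118 CPM at 3 months and 32.7 to 118 CPM at 7 months. Clasrp, the splicing-kinase partner, was split in every group. Its high lungs numbered 6 of 10 at baseline (7.00 to 26.2 CPM), 5 of 10 at the end of exposure (16.9 to 24.9 CPM), 5 of 9 at 3 months (8.44 to 10.1 CPM) and 5 of 10 at 7 months (7.56 to 20.01 CPM). Its low lungs lay at 0 to 0.570 CPM.

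Trim12a, of the Trim5 relatives, was high in all 10 baseline lungs (13.2 to 44.2 CPM) and all 9 at 3 months (17.2 to 58.3 CPM). At the end of exposure 6 lungs had 12.2 to 24.7 CPM and 4 had 0 to 0.0697 CPM. At 7 months 6 had 5.96 to 57.1 CPM and 4 had 0 to 0.0706 CPM. No Trim12a count above 1 was found in any of the 8 low lungs.

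**Figure D2:**
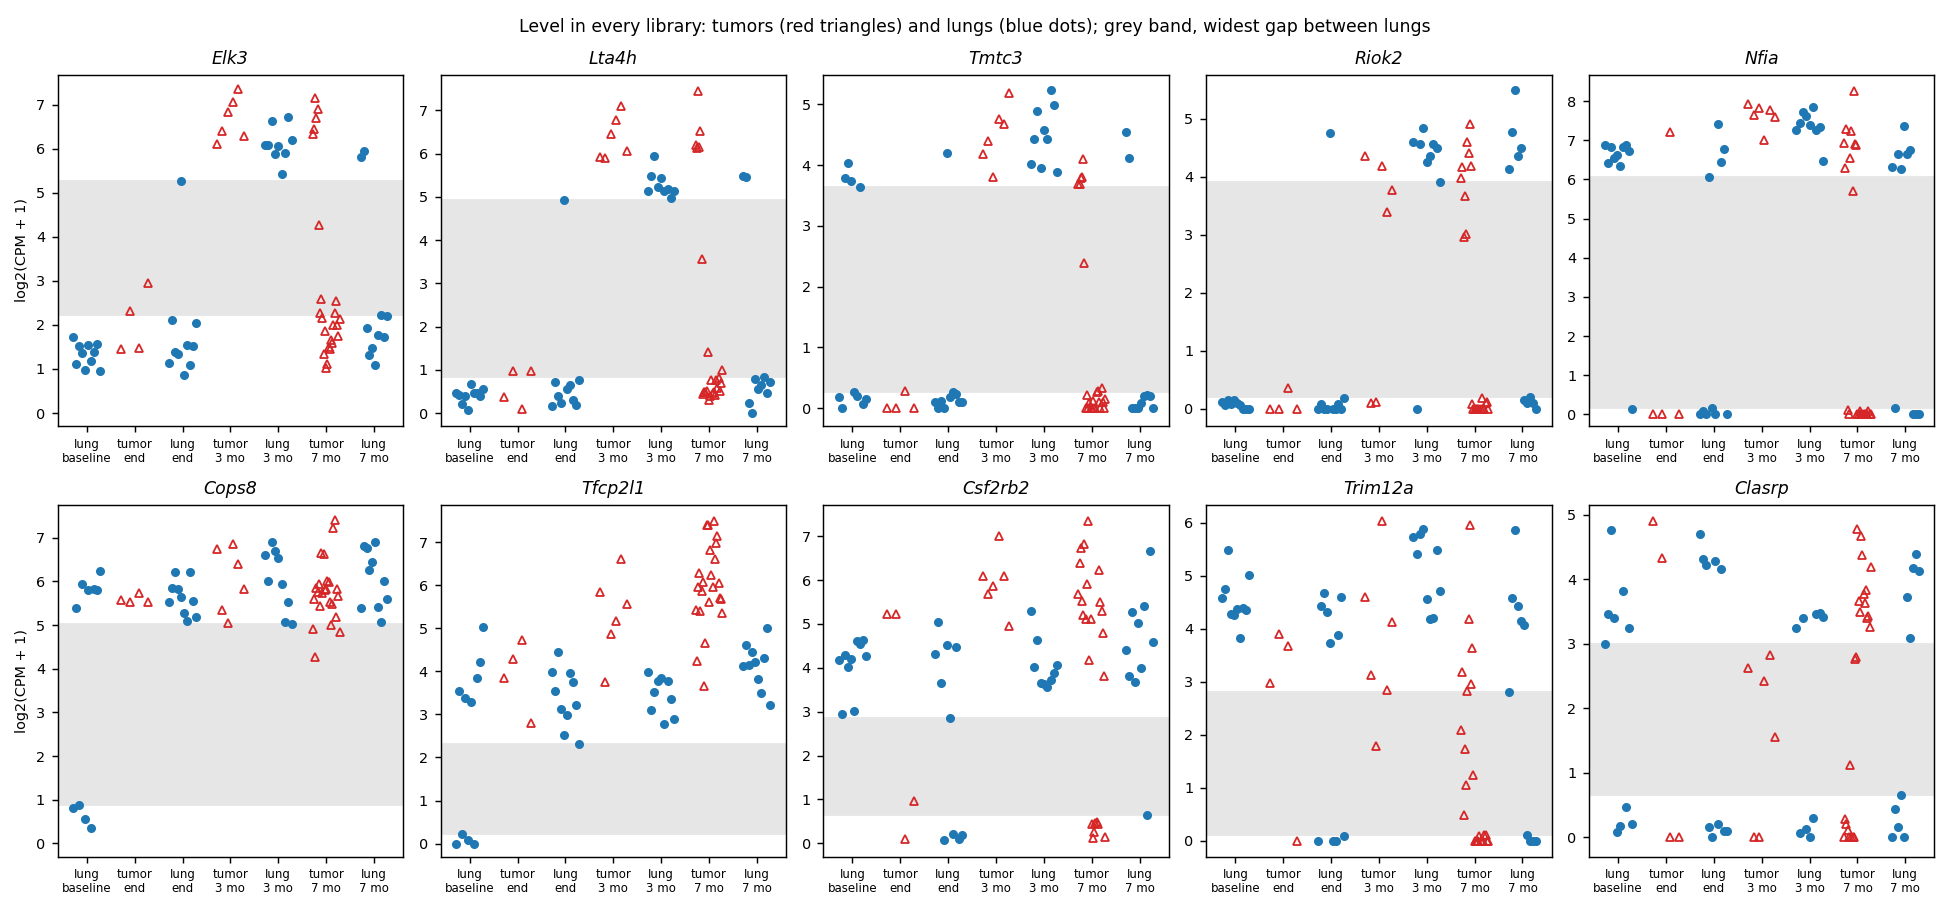
Level of each member in every library (y axis, log2(CPM + 1); x axis, time groups, with tumors as open red triangles left of the lungs of the same time as blue dots). The grey band is the widest gap between lungs, and no lung lies inside it, while single tumors do.

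Sides also differed by the letter, F or M, that begins each animal's name, for which the labels give no key. Xist was on its high side in 20 lungs and Ddx3y in 19, the numbers of animals with F and M. Riok2 was high in 10 of 20 F lungs and 4 of 19 M lungs, Elk3 and Lta4h in 8 of 20 and 4 of 19, and Trim12a in 19 of 20 and 12 of 19. The split was complete at 7 months for 2 genes, with Riok2 high in 5 of 5 F lungs and 0 of 5 M lungs, and Clasrp in 0 of 5 F lungs and 5 of 5 M lungs. At other times it was not, since Clasrp was high in 4 of 5 F lungs and 2 of 5 M lungs at baseline. No member was on 1 side in all F lungs and the other in all M lungs.

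The high side of each member was divided at its widest step, which any sorted set of values has. The steps named here were chosen after their values were seen. For Nfia, 18 high lungs lay at 66.3 to 117 CPM and 10 at 152 to 231 CPM, and the ratio of the medians was 1.71. The upper set held 8 of the 9 lungs at 3 months, 1 of the 4 high lungs at the end of exposure, 1 of the 6 at 7 months and 0 of the 9 at baseline. For Clasrp, 12 lungs lay at 7.00 to 13.1 CPM and 9 at 16.5 to 26.2 CPM, a ratio of medians of 1.92. The upper set of Clasrp held 5 of 5 high lungs at the end of exposure and 0 of 5 at 3 months. Trim12a had 7 lungs at 41.6 to 58.3 CPM above 24 lungs at 5.96 to 31.4 CPM, a ratio of 2.64. Cops8 had 12 at 73.3 to 118 CPM above 23 at 31.7 to 63.5 CPM, a ratio of 2.05. These steps, 0.20 to 0.40 on the log2 scale, were far narrower than the gap below them.

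Members shared their side in some pairs and not in others, on 1 chromosome as on different ones. Elk3 and Lta4h lie 0.206 Mb apart and were on the same side in 39 of 39 lungs. Cops8 and Tfcp2l1 also shared a side in 39 of 39 lungs, although 28.0 Mb lie between them, and only 4 of those lungs were low. Tmtc3, 7.20 Mb from Elk3, was on the side of Elk3 and Lta4h in 35 of 39 lungs. The other 4 were the baseline lungs in which Tmtc3 was high and Elk3 and Lta4h were low, and no lung had the opposite combination. On chromosome 10, therefore, 23 lungs were low for all 3 genes, 12 were high for all 3, and 4 were high for Tmtc3 alone.

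Trim12a and Clasrp, 84.7 Mb apart on chromosome 7, were on the same side in 17 of 39 lungs. Among the 40 pairs of members on different chromosomes, the larger of the numbers on the same side and on opposite sides ran from 20 to 35 of 39, with a median of 23. The top of that range was held by Riok2 on chromosome 17 with Elk3 and Lta4h on chromosome 10, with 35 lungs on the same side. Next came Trim12a with Csf2rb2 and Trim12a with Nfia, each with 32 lungs on the same side. Genes that are high in most lungs share a side often for that reason alone, and the counts are not adjusted for it. Trim12a was high in 31 lungs, Csf2rb2 in 34 and Nfia in 28. Both genes were low in 3 lungs for Trim12a with Csf2rb2 and in 6 for Trim12a with Nfia. In 11 lungs Riok2 and Elk3 were both high, and in 24 both were low. Riok2 alone was high in 3 lungs, all at 7 months, and Elk3 alone in 1, at 3 months. Both genes were low throughout baseline and high in 8 or 9 of the 9 lungs at 3 months, so the agreement in those groups cannot be told apart from time. At the end of exposure the only lung high for Elk3 was also the only one high for Riok2. At 7 months the 2 lungs high for Elk3 were among the 5 high for Riok2.

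**Figure D3:**
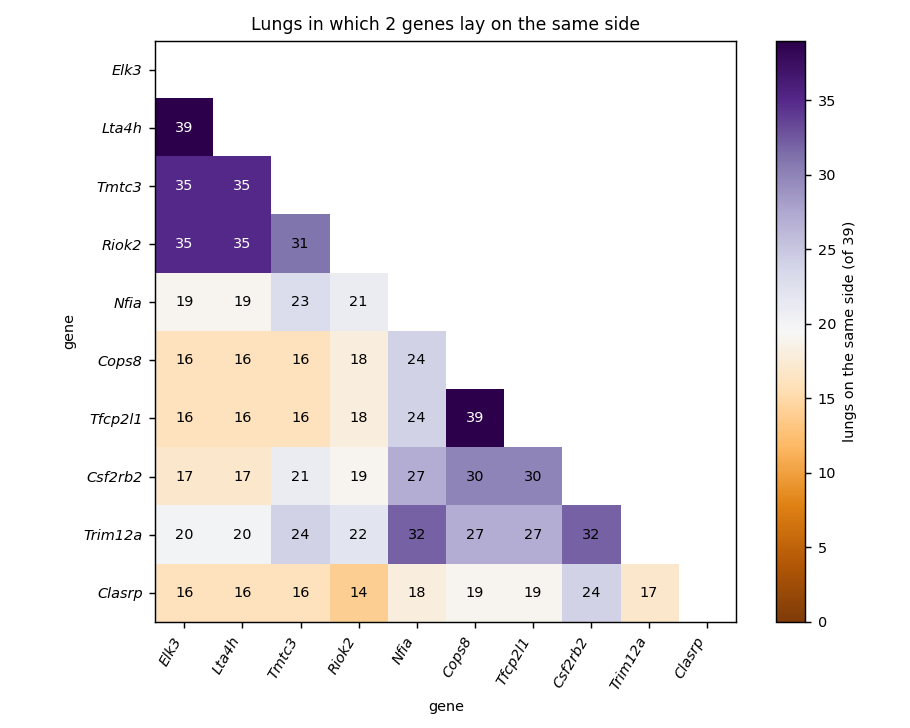
Number of the 39 normal lungs in which 2 members lay on the same side of their gaps (rows and columns, genes; colour and digits, lungs). Elk3 with Lta4h and Cops8 with Tfcp2l1 reach 39, and Elk3 or Lta4h with Tmtc3 or Riok2 reach 35.

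Across all 10 members the 39 lungs showed 20 different combinations of sides. The most frequent was held by 5 lungs, and 11 combinations were seen in 1 lung each. Of the lungs from the end of exposure, replicate 5 was the only one high for Elk3, Lta4h, Tmtc3 and Riok2, and it was low for Nfia and Clasrp. The 7-month lungs of replicates 1 and 2 carried the same high set of Elk3, Lta4h, Tmtc3 and Riok2.

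**Figure D4:**
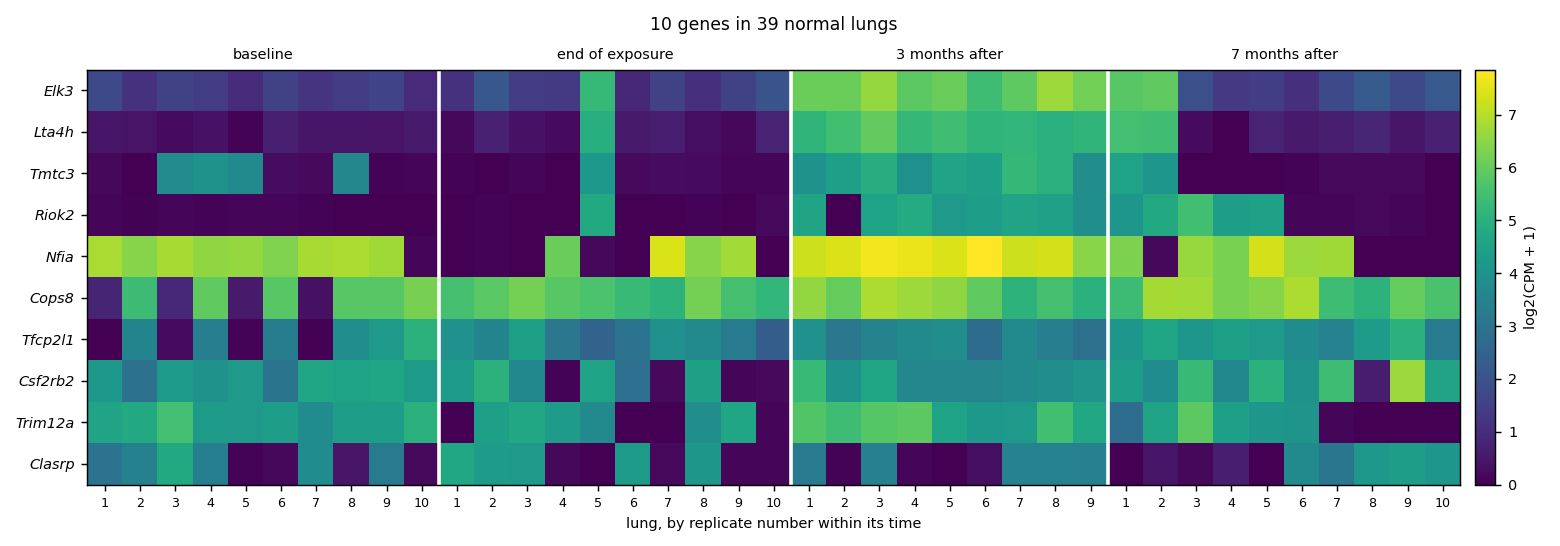
Levels of the 10 members (rows) in the 39 normal lungs (columns, by time and replicate number), with colour giving log2(CPM + 1). The block of high Elk3, Lta4h and Tmtc3 spans all 9 lungs at 3 months, and replicate 5 at the end of exposure stands out from the other 9 lungs of its group.

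Genes outside the list that split the lungs in the same way were sought among all genes tested. The measure was the number of the 39 lungs that the best single threshold of a gene placed on the member's side, in either direction. Vezt, which codes for a protein of adherens junctions and lies 0.714 Mb from Elk3, matched Elk3 and Lta4h in 39 of 39 lungs, with 4.22 to 10.7 CPM in their high lungs and 0 to 0.251 CPM in their low lungs. Tdg, the thymine DNA glycosylase gene 10.6 Mb away, matched in 37, and so did St6galnac5 on chromosome 3, each with levels that overlapped between the sides. Riok2 was matched in all 39 lungs by 1600002H07Rik, 6.84 Mb away, and by Gm17801, 7.90 Mb away. Scly, for selenocysteine lyase, matched Cops8 and Tfcp2l1 in 39, at 10.4 to 34.7 CPM against 2.22 to 4.16 CPM, and lies 0.695 Mb from Cops8. Ankub1 and Psrc1, both on chromosome 3, matched this pair in 38 lungs. For Tmtc3, Vezt matched in 36 lungs and Adgrd1, on chromosome 5, ran against it in 35.

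Csf2rb2 was matched in 39 lungs by Apobec3, a cytidine deaminase gene 1.61 Mb away, at 75.4 to 236 CPM in lungs high for Csf2rb2 and 28.8 to 37.1 CPM in lungs low for it. Trim12a was matched in 39 by Lrrc32, P2ry2 and its neighbour Trim5, and Clasrp by the zinc finger genes Zfp235 and Zfp93. Nfia had no full match, and the nearest was Itgb3bp, 2.19 Mb away, which ran against it in 37 lungs. Its levels overlapped, at 3.48 to 19.004 CPM in lungs high for Nfia and 12.8 to 35.0 CPM in lungs low for it. For 8 of the 10 members at least 1 gene matched in full, and each such gene lay on the member's own chromosome except Nup85, on chromosome 11, which ran against Csf2rb2. A full match is easier to reach where 1 side holds few lungs, as for Cops8, Tfcp2l1 and Csf2rb2 with 4 or 5 low lungs.

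The nearest tested genes before and after each member were sought outside the list. Elk3 and Lta4h, 0.206 Mb apart and on the same side in 39 of 39 lungs, were thus not counted as neighbours of each other. Of the neighbours outside the list, only Trim5 divided all 39 lungs as its member did, and the others reached 22 to 36 lungs. Such numbers are high from the start where 1 side holds few lungs. For Cops8 and Tfcp2l1, 25.7% of the genes on other chromosomes reached at least 36 lungs, and for Csf2rb2 1.43% did. Cdk17 lies beside Elk3, 86.5 kb away, and ranged over 54.0 to 134 CPM in the 39 lungs, with a median of 86.1 CPM in lungs high for Elk3 and 82.2 CPM in lungs low for it. Cep290, 43.6 kb from Tmtc3, had medians of 26.0 and 26.8 CPM in lungs high and low for Tmtc3. Csf2rb, the common beta chain gene 43.3 kb from Csf2rb2, had 21.7 and 26.1 CPM in lungs high and low for Csf2rb2. Csf2rb and Csf2rb2 are close copies of each other, so reads of either may be counted for the other. Zfp296, 3.75 kb from Clasrp, had medians of 2.73 and 2.79 CPM in lungs high and low for Clasrp. Other neighbours differed more in their medians while their levels overlapped. Kitl, for the ligand of the receptor Kit, 428 kb from Tmtc3, had 24.6 and 12.4 CPM in lungs high and low for Tmtc3. Hal, for histidine ammonia-lyase, 35.4 kb from Lta4h, had 4.12 and 6.65 CPM in lungs high and low for Lta4h and Elk3. The transcript 2900060B14Rik, 169 kb from Tfcp2l1, had 1.37 and 0.382 CPM in lungs high and low for Tfcp2l1, and Trim12c, 38.9 kb from Trim12a, had 11.1 and 6.96 CPM in lungs high and low for Trim12a. Trim5, 36.5 kb from Trim12a, had medians of 15.1 and 0.213 CPM in lungs high and low for Trim12a. Trim5, Trim12c and Trim12a are related in sequence, and how far their amplicons can tell their reads apart was not tested.

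Within 5 Mb of any member, 599 other genes were tested. Of these, 8 (1.34%) changed between 3 months and baseline in edgeR's quasi-likelihood test at an adjusted p under 0.05, against 1.72% of all genes. Between the end of exposure and baseline 25 (4.17%) changed, against 4.11% of all genes, and at 7 months 86 (14.4%), against 12.8%. These are the 3 comparisons with baseline, and the differences between shares were not tested.

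Genes with roles close to the members' stayed on 1 level for the most part. A list of 48 such genes held 41 that were tested in normal lung, and their median widest gap was 0.16, as over all genes. The exceptions above 1 were Grhl2 (1.44), Trim5 (1.42) and Trim30d (1.08), and Trim5 and Trim30d both matched Trim12a in 39 of 39 lungs. In the comparison of 3 months with baseline 0 of the 41 were called, and their median log2 fold change was 0.02, against 0.01 over all genes. At 7 months against baseline, which uses the same 10 baseline lungs, 5 were called higher and 2 lower, beside 7.52% and 5.31% of all genes. Those higher were the leukotriene genes Alox5ap (log2 fold change 0.81 ± 0.25 SE, edgeR adjusted p 0.0264) and Ltc4s (0.67 ± 0.19, adjusted p 0.0145), and the cytokine and receptor genes Csf2 (1.20 ± 0.28, adjusted p 0.00362), Csf2ra (0.95 ± 0.27, adjusted p 0.0178) and Csf2rb (0.91 ± 0.24, adjusted p 0.00914). Those lower were Cops4 (−0.40 ± 0.13, adjusted p 0.0338) and Grhl1 (−1.17 ± 0.27, adjusted p 0.00424). At the end of exposure against baseline, beside 2.5% of all genes higher and 1.61% lower, 1 listed gene rose (Grhl3, 0.98 ± 0.29, adjusted p 0.0468) and 3 fell, Nfix (−0.46 ± 0.11, adjusted p 0.00633), Ubp1 (−0.49 ± 0.13, adjusted p 0.0278) and Grhl1 (−0.91 ± 0.27, adjusted p 0.0462). No listed leukotriene gene tested in normal lung had a gap above 1, unlike Lta4h, the enzyme of that pathway that makes leukotriene B4.

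A gene that sits at 2 levels enters the time comparisons as a count of animals. edgeR was fitted to the 39 lungs at once and p-values were adjusted over the 14907 genes, and the values for members are what that fit returned for genes already chosen for their pattern. At 3 months against baseline, 3 of 10 members were called, all higher, against 1.72% of all genes in either direction and 1.09% higher. They were Elk3, at a log2 fold change of 5.48 ± 0.81 (SE), Lta4h at 6.81 ± 1.20 and Riok2 at 8.31 ± 1.62. Behind these values stood 9, 9 and 8 high lungs of 9 at 3 months, against 0 of 10 for each gene at baseline. Tmtc3, with 9 of 9 high lungs at 3 months and 4 of 10 at baseline, had a log2 fold change of 2.11 ± 1.18 and was not called (adjusted p 0.526).

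At 7 months against baseline the same 3 members were called, with 12.8% of all genes. Elk3 had a log2 fold change of 3.13 ± 0.74 and Lta4h one of 4.75 ± 1.12, both with 2 of 10 high lungs at 7 months against 0 of 10 at baseline. The other 8 lungs at 7 months had 1.11 to 3.65 CPM of Elk3, which overlaps the baseline range of 0.939 to 2.32 CPM. Riok2 had a log2 fold change of 7.77 ± 1.60, with 5 of 10 high lungs. All 10 baseline lungs together held 10 counts of Riok2, so the size of its fitted change depends on the prior count of the fit.

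At the end of exposure against baseline, 1 of 10 members was called, against 4.11% of all genes. It was Riok2, with a log2 fold change of 5.49 ± 1.59 and an edgeR adjusted p of 0.0406. The call was lost on leaving out any 1 of the 10 baseline lungs (edgeR adjusted p 0.0526 to 0.0656), with no low count filter and with the animal letter as covariate. The size of the change rested on 1 lung. Replicate 5 at the end of exposure had 26.1 CPM and the other 9 had at most 0.139 CPM, while baseline lungs had at most 0.111 CPM. Without that lung the log2 fold change was −0.80 ± 1.93 (adjusted p 0.876), and the called member was instead Tmtc3, at −5.71 ± 1.43 (adjusted p 0.0164). Without the 5 lungs that were high in Myh6, Riok2 kept its size (5.53 ± 1.95) and lost its call (adjusted p 0.144).

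The same lung changed the outcome of both comparisons with the end of exposure, and so did the choice of model. At 3 months against the end of exposure, 1 of 10 members was called, against 1.01% of all genes, and it was Elk3 at 3.69 ± 0.74. Lta4h, which divided the 2 groups as Elk3 did, with 9 of 9 high lungs at 3 months and 1 of 10 at the end of exposure, had 3.54 ± 0.99 and an adjusted p of 0.0721. Without replicate 5, Elk3 (5.25 ± 0.66), Lta4h (6.68 ± 0.95), Tmtc3 (7.83 ± 1.48) and Riok2 (9.11 ± 1.28) were all called. With every lung kept, these 4 genes were also called when the animal letter was a covariate, and DESeq2 called Elk3 and Lta4h. At 7 months against the end of exposure 0 of 10 were called by edgeR, against 5.75% of all genes, and 2 passed an unadjusted p of 0.05. With DESeq2 it was 1 of 10, Lta4h, against 8.47% of all genes. Without replicate 5 the same 4 genes were called there too, led by Riok2 at 8.58 ± 1.27. The 7-month lungs against the 3-month lungs gave 0 of 10 members, against 0.0537% of all genes by edgeR and 0.671% by DESeq2, and 3 members passed an unadjusted p of 0.05.

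Nfia, Trim12a and Cops8 also had mixed groups and were not called in any lung comparison, whereas Elk3, Lta4h and Riok2 were called from mixed groups at 7 months. Nfia was high in 4 of 10 lungs at the end of exposure and 9 of 10 at baseline, and had a log2 fold change of −1.10 ± 1.09 (adjusted p 0.643). Trim12a was high in 6 of 10 lungs at the end of exposure and 10 of 10 at baseline, with −1.03 ± 0.82 (adjusted p 0.547). Cops8, low in 4 of 10 baseline lungs and in no exposed lung, had 1.08 ± 0.57 at 7 months against baseline (adjusted p 0.208). The standard errors for these 3 genes were 0.57 to 1.09. They were 0.74, 1.12 and 1.60 for the called Elk3, Lta4h and Riok2 at 7 months against baseline.

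Tumors kept the side of the lung they were taken from. Of the 330 pairings of 33 tumors with 10 members, 323 (97.9%) were on the same side as the normal lung of the same animal. When the tumor was set against the lungs of other animals of the same time, 68.1% of 2910 pairings were on the same side. Tumors of 1 animal share that animal, so these are 16 animals and not 33 independent tests. Riok2, Nfia, Cops8, Tfcp2l1 and Csf2rb2 matched in 33 of 33 tumors. For Cops8 and Tfcp2l1 this carries no information, because no tumor-bearing animal was low. They matched in 291 of 291 pairings with other animals too, and both pooled shares include them. For the other members 44.7% to 70.8% of pairings with other animals matched, against 90.9% to 100% with the own lung.

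The match was clearest for Nfia. The 16 tumors of 10 animals with high lungs had 51.2 to 307 CPM, and the 17 tumors of 6 animals with low lungs had 0 to 0.0771 CPM. Riok2 gave 6.76 to 29.0 CPM in 13 tumors of 8 animals with high lungs and 0 to 0.277 CPM in 20 tumors of 8 animals with low lungs. For Csf2rb2 the values were 13.02 to 162 CPM in 24 tumors of animals with high lungs and 0.0693 to 0.963 CPM in 9 tumors of 3 animals with low lungs. In other-animal pairings of the same time, the share on the same side was 52.6% for Nfia, 52.2% for Riok2 and 66.0% for Csf2rb2.

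In 10 animals with 2 or more tumors, all tumors of an animal were on the same side for every member except Trim12a, for which 3 animals had tumors on both sides. Trim12a matched in 30 of 33 tumors. The 3 others were 7-month tumors at 0.393, 1.06 and 1.36 CPM, whose lungs had 5.96, 23.001 and 15.8 CPM. All 13 tumors of animals low for Trim12a were at 0 to 0.0839 CPM. Clasrp matched in 32, and the exception was a 3-month tumor with 1.95 CPM, whose lung had 10.1 CPM.

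A single 7-month tumor, replicate 6, accounted for the other 3 mismatches. Its lung was low for the chromosome 10 genes, with 2.80 CPM of Elk3, 0.175 of Lta4h and 0 of Tmtc3, and the tumor had 18.2, 10.9 and 4.22 CPM. Among the 21 other tumors of lungs low for these genes the highest values were 6.80, 1.68 and 0.252 CPM. In the tumor the 3 genes stood at 28.9%, 30.3% and 24.99% of the medians of high lungs, and Vezt, the outside gene with the same pattern, at 28.9%. Clasrp, low in its lung at 0.117 CPM, was at 1.17 CPM in the tumor, 9.56% of the median of high lungs, with Zfp235 at 19.97%. The 6 members on the high side in its lung were on the high side in the tumor too, at different levels. Trim12a had 6.10 CPM in the tumor and 57.1 CPM in its lung, and the tumor's level was 29.7% of the median of high lungs. Riok2 had 23.1 CPM in the tumor and 44.0 CPM in its lung, and Cops8 had 60.1 CPM and 108 CPM. Nfia had 93.0 CPM in the tumor and 99.5 CPM in its lung, Tfcp2l1 had 57.6 CPM and 16.6 CPM, and Csf2rb2 had 112 CPM and 37.9 CPM. The tumor had 841 CPM of Xist and no Ddx3y count, and its lung had 753 CPM and none. What set these intermediate values was not tested. Without this tumor 316 of 320 pairings were on the same side.

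**Figure D5:**
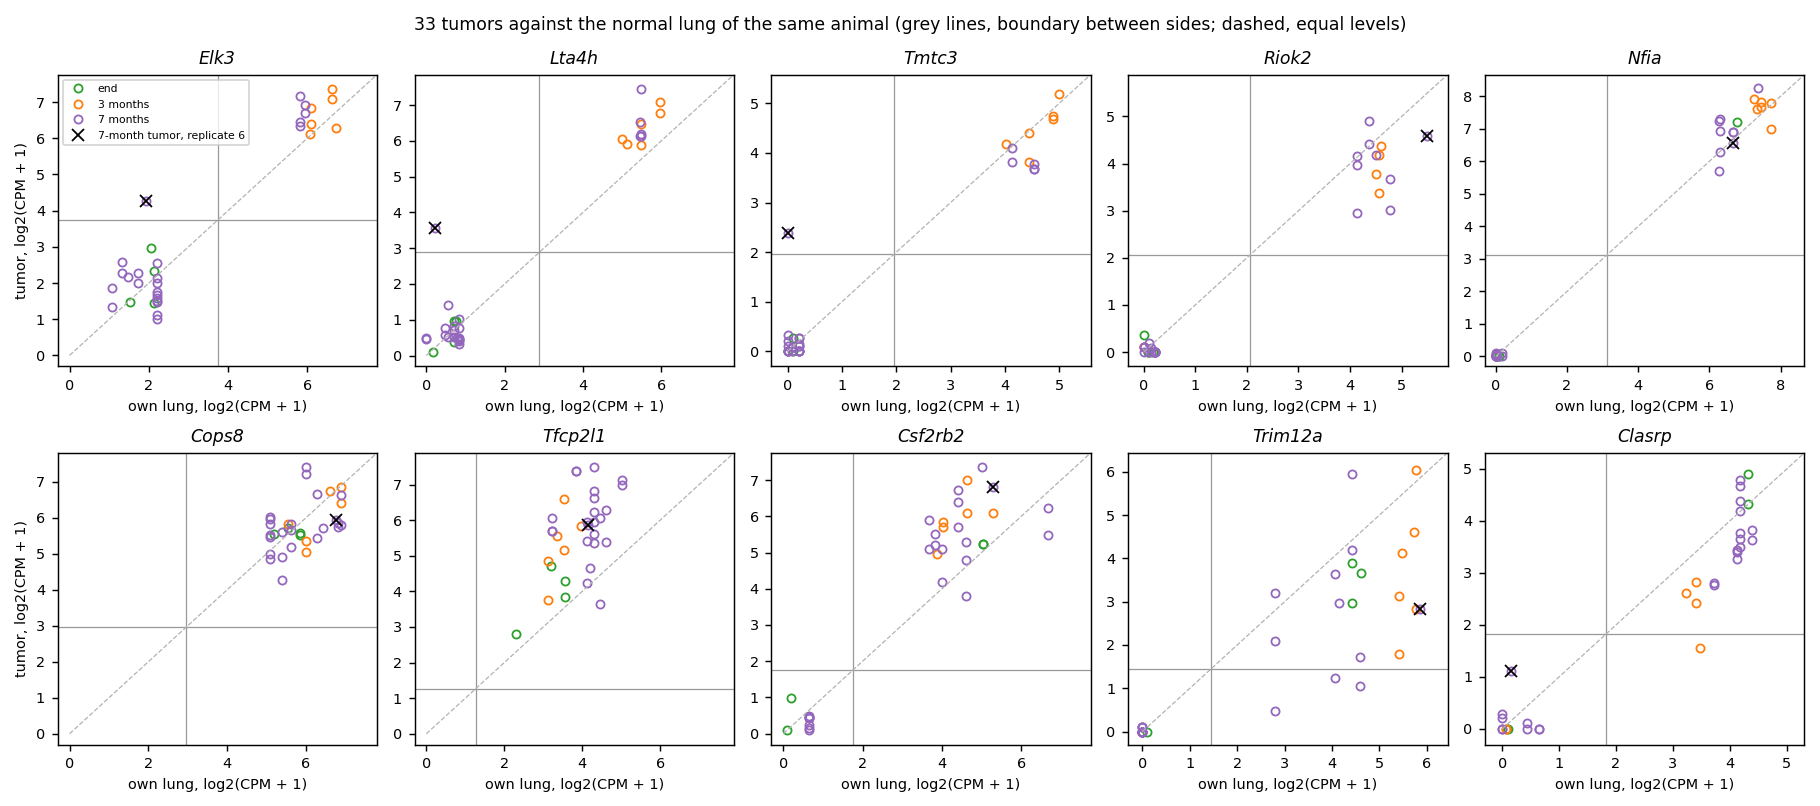
Level in each of 33 tumors (y axis) against the normal lung of the same animal (x axis), both as log2(CPM + 1), with one panel per member and colours for the time. Grey lines mark the boundary between sides, and the cross marks the 7-month tumor of replicate 6, which lies above the boundary for Elk3, Lta4h and Tmtc3 while its lung lies below.

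Levels in tumors and lungs were also compared over all 16 animals, whichever side the lung was on. For Elk3 and Lta4h, 10 of these animals had a low lung. Counts of tumors were summed by animal and compared with the lung of the same animal in edgeR, with the animal as a block, over 16 animals and 15773 genes. Of the 10 members 5 were called, 4 higher in tumors and 1 lower. Among all genes 49.3% were called, so the members did not stand out by this count. Tfcp2l1 had a log2 fold change of 1.75 ± 0.22 in tumors against lung, Csf2rb2 of 1.19 ± 0.24, Lta4h of 0.87 ± 0.32, Elk3 of 0.57 ± 0.20 and Trim12a of −1.30 ± 0.33. Without the animal block only Tfcp2l1 was called, and with scaling by total counts, which moved the median of all genes to −0.24, Lta4h (0.62) and Elk3 (0.34) were not called. Lta4h kept its call in 12 of the 16 fits that left out 1 animal (edgeR adjusted p up to 0.0578).

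Within animals whose lung was on the high side, the levels were as follows. Tfcp2l1 was higher in the tumors than in the own lung in 16 of 16 animals, with medians of 50.7 CPM in tumors and 13.99 CPM in lungs. Csf2rb2 was higher in tumors in 12 of 13 animals (medians 53.8 CPM in tumors and 23.2 CPM in lungs) and Lta4h in 6 of 6 (76.7 CPM in tumors and 43.5 CPM in lungs). Trim12a was lower in tumors in 11 of 12 animals (8.59 CPM in tumors and 23.2 CPM in lungs), Riok2 in 7 of 8 and Clasrp in 7 of 8. Elk3 was higher in tumors in 5 of 6 animals, at 101 CPM in tumors and 66.8 CPM in lungs, and Nfia in 8 of 10. Tmtc3, on the same stretch of chromosome 10, was higher in tumors in 2 of 6 animals.

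Markers of 4 cell types are given here beside these differences. For these 4 types the ranges of the summed levels overlapped between tumors and lungs, but most medians lay far apart. In tumors and lungs the medians were 70345 and 19276 CPM for alveolar type 2 and 5880 and 34245 CPM for club cell markers. They were 19.3 and 437 CPM for ciliated cell and 79.3 and 87.0 CPM for leukocyte markers. Other types measured had medians, in the same order, of 670 and 538 CPM for endothelial and 535 and 572 CPM for fibroblast markers. The medians were 178 and 88.0 CPM for alveolar type 1 and 13.9 and 459 CPM for heart muscle markers. Fat markers had 0.208 and 4.37 CPM, and liver markers 2.70 and 1.33 CPM. The summed level of 4 alveolar type 2 markers was 11525 to 265053 CPM in tumors and 11607 to 56096 CPM in lungs. The 2 club cell markers summed to 24.4 to 51629 CPM in tumors and 8976 to 125493 CPM in lungs, and 3 ciliated cell markers to 0.163 to 476 CPM in tumors and 180 to 885 CPM in lungs. The 4 leukocyte markers summed to 26.8 to 1041 CPM in tumors and 29.5 to 227 CPM in lungs. The part of these cells in the member levels was not tested. The related genes moved in tumors as well, with 15 of 44 tested higher and 6 lower, beside 24.1% of all genes higher and 25.2% lower. Those higher included Csf2rb (log2 fold change 1.67 ± 0.23 in tumors against lung), Csf2 (1.52 ± 0.14) and Alox5 (0.93 ± 0.18), and those lower included Trim5 (−1.04 ± 0.27) and Trim30d (−1.43 ± 0.36).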

How the data were processed

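RNA from 39 normal-appearing lungs and 33 tumors was read with an Ion AmpliSeq mouse transcriptome panel on the Ion Proton, from 10 ng of total RNA and with 8 libraries to a chip, per the labels' protocols. The authors deposited 1 table of raw read counts per gene, with 1 amplicon for each gene. Which aligner, counter and build were used is not stated here by labels or headers. Of its 74 sample columns, 72 matched a sample and 2 were not used. For 27 genes shown as calendar dates the symbol was taken from the amplicon's name. The members and all gene lists were chosen with earlier results of these data known.

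From the deposited counts, CPM scaled by TMM over 72 libraries was computed and used as log2(CPM + 1). Levels and sides carry no test. edgeR 4.0.16 (R 4.3.3; filterByExpr, TMM, robust quasi-likelihood fit, Benjamini-Hochberg at 0.05) was fitted to the 4 lung groups together (14907 genes, 35 residual degrees of freedom), and to counts of tumors summed by animal and own lung with the animal as a block (15773 genes, 15 residual degrees of freedom). Standard errors are the log2 fold change divided by the square root of F. DESeq2 1.42.0 was an alternative, with other scaling, no filter, an animal letter term, fits of 2 groups and leaving out each animal. Pairing comes from tumor and lung being of 1 animal, and the correlation of their deviations from the group means was −0.15 to 0.43 (median 0.26). Scripts were tested on simulated data. Every lung is from another animal, and total counts of 7459147 to 21822522 limit low values, where 1 count is the smallest step. The genes named besides members are the 3 most alike per member, the nearest tested neighbours and the listed related genes. RefSeq positions and promoters are of GRCm38.p6, and 14666 of the 14907 tested genes had a position.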

Additional observations from a re-analysis of the deposited data

Results flagged for a closer look

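In 60 groups of 4 to 10 libraries (10 members in 6 groups), 12 times a single library lay far from the rest of its group on the log2(CPM + 1) scale, by Dixon's test at 95%. Chance gives about 1 in 20 such groups, while a group with 1 library on the other side meets this test by its construction.

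Replicate 5 of the lungs at the end of exposure was the highest of its group for 4 genes, at 37.4 CPM of Elk3, 29.7 CPM of Lta4h, 17.3 CPM of Tmtc3 and 26.1 CPM of Riok2. Single lungs on the low side were replicate 2 at 3 months for Riok2 (0 CPM), replicate 10 at baseline for Nfia (0.104 CPM) and replicate 8 at 7 months for Csf2rb2 (0.556 CPM). Within the high side, Nfia was lowest in replicate 9 of the lungs at 3 months (87.3 CPM) and in replicate 4 of the tumors at 3 months (127 CPM). Among the 4 tumors at the end of exposure, replicate 3 was the highest for Nfia (147 CPM), as its own lung was on the high side, and also for Tmtc3 (0.208 CPM) and Riok2 (0.277 CPM), which are values of 3 and 4 counts.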

How the results depend on the processing

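The side of every lung was the same under log2(CPM + 0.1), log2(CPM + 5) and total-count scaling. Asking for at least 5 lungs on each side moved 25 lung values, all of Cops8 and Tfcp2l1. Tumors on the side of their own lung numbered 314 to 325 of 330 under these settings. Shares called near members stayed within the 95% binomial interval of the 5 Mb value with windows of 2 and 10 Mb. The number of members called held within 1.5 times under the other settings, with these exceptions, whose causes were not tested unless stated. For the end of exposure against baseline it was 0 rather than 1 with no low count filter, with the animal letter as covariate, in a fit of these 2 groups alone (7 members tested) and without the 5 Myh6-high lungs. For 7 months against baseline it was 1 rather than 3 in a fit of those 2 groups alone, where 7 members were tested. For 3 months against the end of exposure it was 4 rather than 1 with the animal letter as covariate and 2 with DESeq2, and for 7 months against the end of exposure 1 rather than 0 with DESeq2. For tumors against own lung it was 3 rather than 5 with total counts and 1 with no replicate block. Leaving out each lung in turn gave 0 to 1 members at the end of exposure against baseline, 3 to 3 at 3 months and at 7 months against baseline, 1 to 4 at 3 months and 0 to 4 at 7 months against the end of exposure, and 0 to 0 at 7 months against 3 months. Leaving out each animal gave 4 to 6 for tumors. Leaving out any 1 of the 10 baseline lungs ended the Riok2 call at the end of exposure (log2 fold change 5.34 to 5.65, adjusted p 0.0526 to 0.0656), and without replicate 5 at the end of exposure its log2 fold change was −0.80. Of 674 values for 17 results on single genes, 647 kept direction and call, 23 lost the call, 3 gained it and 1 turned round. The comparison without the 7-month tumor of replicate 6, the fits without Myh6-high or shallow lungs and the leave-one-out of lungs were added after seeing the data.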
